A study of Bos taurus with 14 samples.

Results

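The miR-30 family was profiled in peripheral white blood cells (PWBC) of 14 beef heifers, with 1 small RNA library per heifer. Its members were taken by name as the 7 mature miRNAs bta-miR-30a-5p, bta-miR-30b-5p, bta-miR-30b-3p, bta-miR-30c, bta-miR-30d, bta-miR-30e-5p and bta-miR-30f, out of 1030 mature names in the count table, of which 614 had a count in any heifer. All 14 animals were Angus-Simmental crossbred heifers bled at weaning, before breeding, and later put through the same synchronization and artificial insemination (AI) program. The fertile group (FH) holds the 7 heifers that became pregnant to AI, and the subfertile group (SFH) holds 7 labelled as not pregnant to AI. By the study's methods, bulls were run with all heifers after AI, and the SFH heifers were not pregnant after this natural service either. Heifers are named by the number their labels give. PWBC are a mixture of leukocytes, and in such bulk samples fewer cells of a type and less miRNA per cell cannot be told apart.

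miRNAs are short RNAs that guide the silencing complex to messenger RNAs, mainly through the seed near their 5′ end, and lower the stability or translation of those targets. The miR-30 miRNAs that come from the 5′ arm of their precursors share a seed and are therefore thought to act on overlapping targets, among them *BECN1*, a gene of autophagy, and *SNAI1*, a regulator of the epithelial to mesenchymal transition. The 3′ arm, here bta-miR-30b-3p, is the opposite strand of the hairpin, with another seed. The family is made from paired genes. By name, 6 precursor genes were found in the gene table of RefSeq for assembly ARS-UCD2.0, where they formed 3 pairs of neighbours. *MIR30C* and *MIR30E* both overlap *NFYC*, which encodes a subunit of the transcription factor NF-Y. *MIR30D* and *MIR30B* adjoin each other and overlap no other gene. *MIR30F* is the nearest gene to the left of *MIR30A*, and *MIR30A* overlaps the uncharacterized gene *LOC132346186*. The files use another assembly, so no coordinates are given.

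The counts on mature miRNAs summed to 1754971 to 5468341 per heifer (median 2870197), and no pair of the 14 libraries was identical. The TMM scaling factor, which corrects a library for its composition, was 0.817 in FH heifer 29 and 0.963 to 1.08 in the other 13. Of the leukocyte markers, bta-miR-150 had at least 34258, bta-miR-223 at least 11535 and bta-miR-142-5p at least 5351 TMM-normalized CPM in every heifer. bta-miR-342 had at least 8458.3 and bta-miR-155 at least 6121.6, but bta-miR-142-3p had only 52.8 to 361 TMM-normalized CPM. Of the erythroid markers, bta-miR-451 ran from 841 to 7150 and bta-miR-486 from 425 to 2194 TMM-normalized CPM, and bta-miR-144 had no count in any library. No batch is named in the labels.

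The family took 6.40 ± 0.743% of all mature miRNA counts (SD, n = 14). In FH the share ran from 5.73% through a median of 6.34% to 7.63%, and in SFH from 5.08% through a median of 6.19% to 7.46%. The extremes were FH heifer 27 (95% Wilson interval 7.60 to 7.65%) and SFH heifer 30 (5.06 to 5.10%). Such intervals cover counting error only, and with 1 library per heifer the variation between libraries of the same heifer is unknown. The groups overlapped over most of their range, and the means were 6.49 ± 0.673% for the FH heifers and 6.31 ± 0.850% for the SFH heifers (SD, n = 7 each). No test was made on this total, since the members were chosen by name with earlier results known.

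The members differed widely in level. Levels are given as the deposited CPM, counts scaled to the total over the 341 miRNAs that the authors retained, and all 7 members are among these 341. A read covers a whole mature miRNA, so the counts were not divided by length. How well each sequence was captured in the libraries was not tested. Because the members differ by few bases, the split of reads between near-identical members is also uncertain.

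The most abundant member was bta-miR-30d, with 40601 ± 6633 CPM (SD, n = 14), the 9th highest of the 341 miRNAs. It was followed by bta-miR-30c at 17070 ± 3963 CPM, which ranked 15th. Together they held 90.5% of the family's counts. The next members, bta-miR-30b-5p at 3830 ± 1908 CPM and bta-miR-30e-5p at 2187 ± 554 CPM, ranked 48th and 56th. bta-miR-30a-5p was present at 223 ± 64.0 CPM. The rarest were bta-miR-30b-3p at 45.7 ± 22.0 CPM and bta-miR-30f at 43.4 ± 18.3 CPM. From bta-miR-30d to bta-miR-30f the mean level fell by a factor of 935.

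The order was tested within heifers, as the log2 ratio of neighbours in the order (CPM + 0.5), by a two-sided exact sign-flip permutation test with Benjamini-Hochberg adjustment over the 6 neighbouring pairs. The order itself came from the mean CPM of the same 14 heifers, so the p-values give it no independent support. bta-miR-30d exceeded bta-miR-30c in 14 of 14 heifers, by a mean log2 ratio of 1.27 ± 0.44 (SD), or 2.41-fold. bta-miR-30c exceeded bta-miR-30b-5p by 2.26 ± 0.56, bta-miR-30e-5p exceeded bta-miR-30a-5p by 3.30 ± 0.37, and bta-miR-30a-5p exceeded bta-miR-30b-3p by 2.48 ± 1.29, each in all 14 heifers. These 4 pairs had the same adjusted p of 0.000183, from the smallest p that the exact test can give (0.000122). bta-miR-30b-5p lay above bta-miR-30e-5p in 12 heifers, with a mean log2 ratio of 0.71 ± 0.64 (adjusted exact permutation p = 0.00161). The exceptions were FH heifer 27 and SFH heifer 32, in which bta-miR-30e-5p was slightly higher. The last pair, bta-miR-30b-3p and bta-miR-30f, could not be ordered, with a mean log2 ratio of −0.08 ± 1.17 and bta-miR-30b-3p higher in 8 heifers (adjusted exact permutation p = 0.867).

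**Figure D1:**
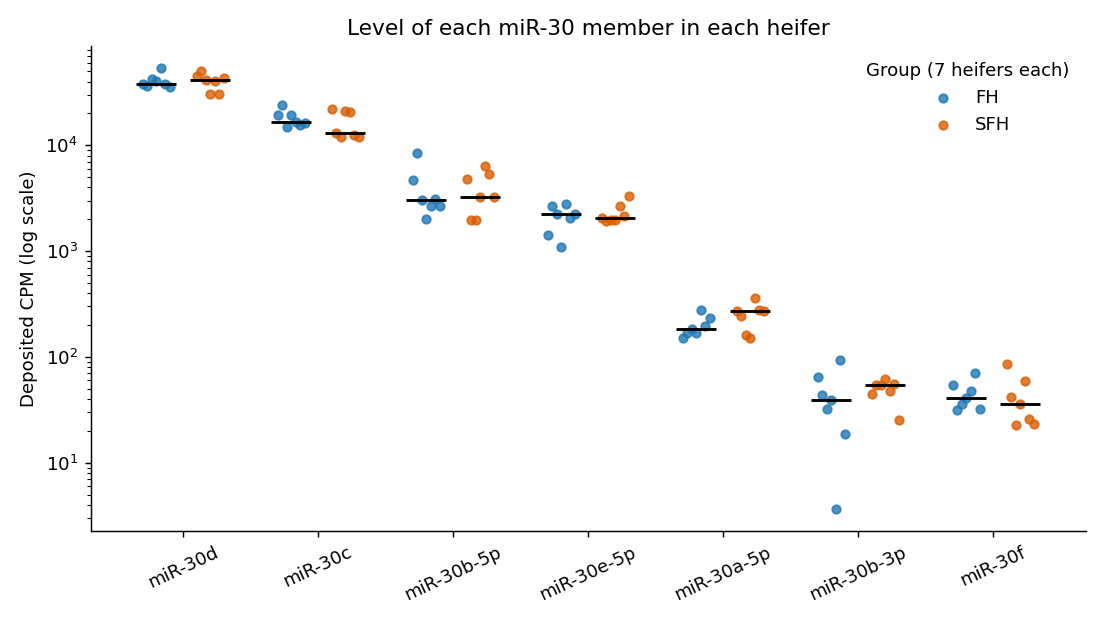
Deposited CPM (log scale) of the 7 miR-30 members, with 1 point per heifer, FH in blue and SFH in orange, and a black line at the median of each group of 7. The members span from about 40601 CPM for miR-30d to 43.4 CPM for miR-30f, while the groups overlap for every member, as for all 341 miRNAs, and the lowest point is miR-30b-3p in FH heifer 27.

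The spread between heifers also differed by member. It was narrowest for bta-miR-30d, with a coefficient of variation of 16.3%, and for bta-miR-30c, with 23.2%. It was widest for bta-miR-30b-5p (49.8%), bta-miR-30b-3p (48.1%) and bta-miR-30f (42.0%). Counting alone would give 0.306% for bta-miR-30d, 1.05% for bta-miR-30b-5p and 11.2% for the rare bta-miR-30b-3p. The share of the family's reads held by bta-miR-30b-5p accordingly ran from 2.90% to 11.9%, and that of bta-miR-30d from 50.7% to 74.5%.

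The question put to these heifers was whether PWBC miRNAs at weaning differ between heifers that later prove fertile and subfertile. For the miR-30 family no such difference was detected. In edgeR's quasi-likelihood test of SFH relative to FH, none of the 7 members passed an unadjusted p-value of 0.05, with or without the fold change threshold of 0.5 on the log2 scale that the study's methods set. Over all 341 miRNAs tested, 5.87% passed the p-value alone and 3.81% passed both. Of the 341, 2.64% passed the p-value with a higher and 3.23% with a lower level in SFH. By an exact two-sided permutation test over all arrangements of the heifers, 0 members and 6.16% of the 341 miRNAs passed an unadjusted 0.05. After Benjamini-Hochberg adjustment over the 341 miRNAs, 0 miRNAs passed in edgeR. In DESeq2, 0 members passed before or after adjustment, against 6.16% and 0.587% of the 341 miRNAs. In limma-voom, 0 members passed before or after adjustment, against 8.21% and 0% of the 341. Fold changes on the log2 scale were above 0 for 3 members and below 0 for 4. Their median absolute size was 0.11 in the family and 0.32 over the 341 miRNAs, with median standard errors of 0.26 and 0.48. These were given side by side without a test. The CPM of FH and SFH overlapped for all 7 members, and 0% of the 341 miRNAs had groups that did not overlap.

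For the most abundant member, bta-miR-30d, the data limit how large a difference could be. bta-miR-30d ran from 35890 CPM through a median of 37938 to 53838 CPM in FH and from 30526 through 41826 to 50799 CPM in SFH. SFH heifers 26 and 30 were below every FH heifer, FH heifer 27 was above every SFH heifer, and the other 11 lay between. For bta-miR-30d the log2 fold change was −0.09 (standard error 0.15), with a 95% interval of −0.40 to 0.22 (edgeR, adjusted p = 0.976). The whole interval thus lies inside the threshold of 0.5 on either side.

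bta-miR-30c, one of the pair in *NFYC*, ran from 14964 CPM through a median of 16691 to 23851 CPM in FH and from 11930 through 13109 to 21917 CPM in SFH. The SFH heifers fell apart in this member. Heifers 21, 23, 30 and 32 lay below every FH heifer, at 11930 to 13109 CPM, whereas heifers 17, 26 and 28, at 20661 to 21917 CPM, were above every FH heifer but heifer 22. For bta-miR-30c the log2 fold change was −0.22 (standard error 0.18, 95% interval −0.59 to 0.16; edgeR, adjusted p = 0.947). Its sign stayed negative in all 25 fits made, from −0.30 to −0.15.

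The partner of bta-miR-30c in *NFYC*, bta-miR-30e-5p, ran from 1103 CPM through 2233 to 2776 CPM in FH and from 1924 through 2069 to 3291 CPM in SFH. FH heifers 20 and 25 were below every SFH heifer. Its log2 fold change was 0.07 (standard error 0.20, 95% interval −0.35 to 0.50; edgeR, adjusted p = 0.977). Its sign is not settled, at −0.03 without FH heifer 25, −0.0046 without FH heifer 20 and −0.03 without SFH heifer 32.

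bta-miR-30b-5p ran in FH from 2002 CPM through 3051 to 8515 CPM, and in SFH from 1974 through 3224 to 6414 CPM. FH heifer 22 alone stood at 8515 CPM, with the next FH heifer at 4672 CPM. Between the groups the log2 fold change was −0.03 (standard error 0.31, 95% interval −0.67 to 0.60; edgeR, adjusted p = 0.977). The sign of this value is not settled, since it was 0.04 with upper quartile scaling, 0.01 with library totals only, 0.02 in limma-voom and 0.27 (standard error 0.27) without FH heifer 22.

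bta-miR-30a-5p had the largest positive fold change of the family. It ran from 151 CPM through 185 to 276 CPM in FH and from 150 through 274 to 362 CPM in SFH. SFH heifers 23 and 26 were as low as the lowest FH heifers, and the other 5 lay above the FH median. For bta-miR-30a-5p the log2 fold change was 0.26 (standard error 0.26, 95% interval −0.27 to 0.80; edgeR, adjusted p = 0.947), and p = 0.300 in the exact permutation test. It stayed between 0.14 and 0.37 in the 25 fits, with no unadjusted edgeR p below 0.188.

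For the rare members the intervals are wide. bta-miR-30f, the neighbour of bta-miR-30a-5p, ran from 31.7 CPM through 41.2 to 70.1 CPM in FH and from 22.9 through 36.1 to 85.2 CPM in SFH. Its log2 fold change was −0.19 (standard error 0.45, 95% interval −1.14 to 0.75; edgeR, adjusted p = 0.977). SFH heifers 23, 30 and 32 were below every FH heifer, and SFH heifer 17 was above all of them. Without SFH heifer 17 the value was −0.44, and without FH heifer 29 it was 0.01.

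**Figure D2:**
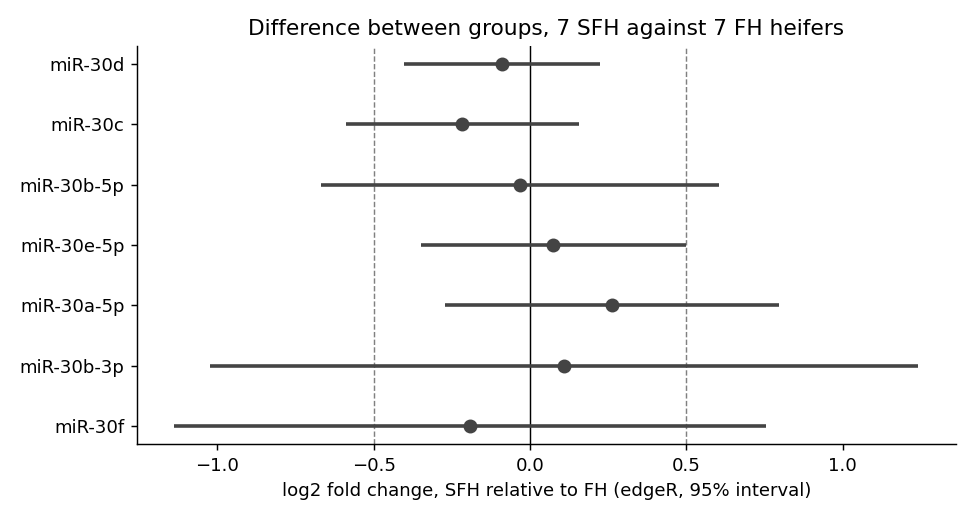
log2 fold change of each miR-30 member in SFH relative to FH (points, edgeR) with its 95% interval (bars), and dashed lines at −0.5 and 0.5. All 7 intervals cross 0, and those of miR-30d (−0.40 to 0.22) and miR-30c (−0.59 to 0.16) are the narrowest of the 7.

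The arms of the miR-30b hairpin can be compared within a library, free of scaling. Every heifer had far more of the 5′ arm. There were 33.5 to 726 reads of bta-miR-30b-5p per read of bta-miR-30b-3p in FH (median 93.9) and 36.0 to 133 in SFH (median 96.3). The highest ratio came from FH heifer 27, with 14527 reads of bta-miR-30b-5p and 20 of bta-miR-30b-3p in the deepest library of all. The lowest came from FH heifer 29, with 14019 and 419 reads, so that both extremes were fertile heifers with similar counts of the 5′ arm. On deposited CPM with 0.5 added to each arm, the mean log2 ratio was 6.78 ± 1.41 for the FH heifers and 6.19 ± 0.83 for the SFH heifers (SD, n = 7 each). SFH minus FH came to −0.59, less than either SD (p = 0.386, exact permutation test, two-sided), and shrank to −0.16 without FH heifer 27 (exact permutation p = 0.738).

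The level of bta-miR-30b-3p itself ran from 3.66 CPM through 38.9 to 93.0 CPM in FH and from 25.1 through 54.3 to 61.9 CPM in SFH, with both the lowest and the highest heifers in FH. Of the SFH heifers, 6 were above the FH median. For bta-miR-30b-3p the log2 fold change was 0.11 (standard error 0.54, 95% interval −1.02 to 1.24; edgeR, adjusted p = 0.977). It was −0.10 without FH heifer 27, −0.03 without FH heifer 31 and 0.53 without FH heifer 29, and limma-voom gave 0.89 (standard error 0.63).

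**Figure D3:**
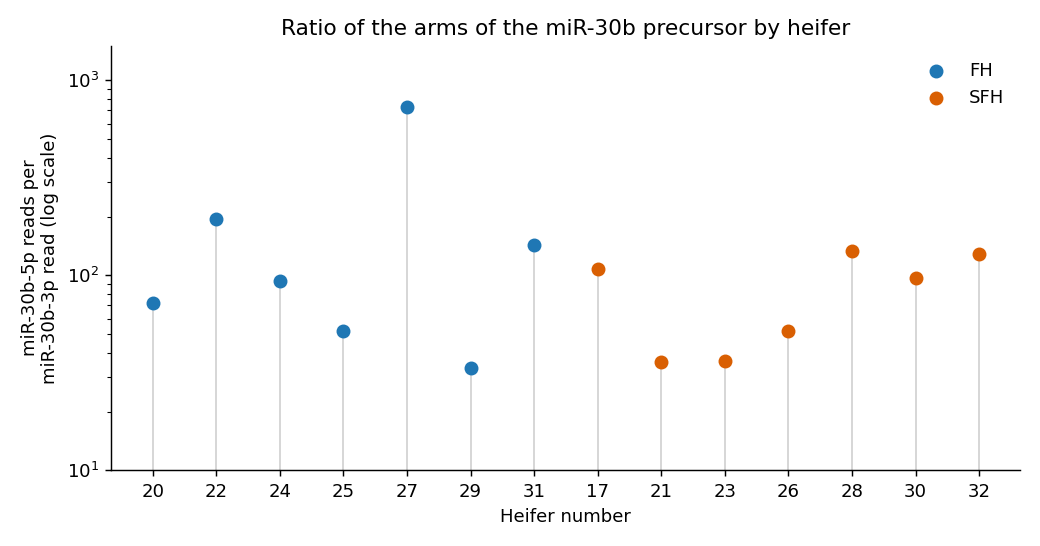
Reads of miR-30b-5p per read of miR-30b-3p (log scale) in each heifer, FH in blue and SFH in orange. FH heifer 27 stands at 726 and FH heifer 29 at 33.5, while the 7 SFH heifers lie between 36.0 and 133.

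Whether the members vary together between animals was examined next. The 21 pairs of members were correlated over the 14 heifers on log2(TMM-normalized CPM + 0.5), with two-sided permutation tests of 100000 resamples and Benjamini-Hochberg adjustment over the 21 pairs. Pearson's r was above 0 in 13 pairs, with a median of 0.18 and a range of −0.39 to 0.65. With single heifers left out this median ran from 0.0898, without FH heifer 29, to 0.25, without FH heifer 27. Over all pairs of the 341 miRNAs, with all heifers, the median r was 0.01. All values share the library totals as a denominator. Unadjusted p-values of at most 0.05 were obtained for 2 pairs and adjusted ones for 0. The share of all pairs of the 341 miRNAs with such p-values was not computed.

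The highest r joined bta-miR-30c and bta-miR-30f, members of different gene pairs, with r = 0.65 (permutation p = 0.0133, adjusted p = 0.278) and Spearman's rho = 0.56 (permutation p = 0.0400, adjusted p = 0.282). It was seen in SFH (r = 0.82, n = 7, exact permutation p = 0.0409) more than in FH (r = 0.13, n = 7, exact permutation p = 0.790), though the difference was not tested. Without heifers 23 and 32, the farthest from the median of bta-miR-30c, r was 0.42, and without FH heifer 22 it was 0.79 (adjusted permutation p = 0.0311). bta-miR-30a-5p and bta-miR-30e-5p, again from different gene pairs, followed with r = 0.56 (permutation p = 0.0348, adjusted p = 0.366) and rho = 0.58 (permutation p = 0.0328, adjusted p = 0.282). For this pair FH (r = 0.63) and SFH (r = 0.56) gave similar values, and r was 0.42 without heifers 20 and 28.

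Members from neighbouring genes did not vary together detectably. The lowest r of all was that of bta-miR-30b-5p and bta-miR-30d, from adjoining genes, at −0.39 (permutation p = 0.167, adjusted p = 0.540), with rho = −0.31 (permutation p = 0.287). It was negative in FH (−0.42) and in SFH (−0.39), and −0.38 without heifers 22 and 28. In the 14 heifers the ratio of these neighbours varied 6.05-fold. bta-miR-30c and bta-miR-30e-5p, both within *NFYC*, had r = −0.17 (permutation p = 0.569) and rho = −0.04 (permutation p = 0.893), with r of −0.15 in both groups and −0.04 without heifers 23 and 32. bta-miR-30a-5p and bta-miR-30f had r = 0.30 (permutation p = 0.290) and rho = 0.20 (permutation p = 0.481), with 0.34 in FH, 0.43 in SFH and 0.32 without heifers 20 and 28.

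The arms of miR-30b, which come from the same hairpin, had r = 0.23 (permutation p = 0.446) and rho = 0.31 (permutation p = 0.279), with 0.37 in FH, 0.00136 in SFH and 0.24 without heifers 22 and 28. bta-miR-30b-3p and bta-miR-30d had r = −0.38 (permutation p = 0.183) and rho = −0.20 (permutation p = 0.493), and r was −0.06 without heifers 27 and 29. The adjusted p-values of these 4 pairs were 0.540 to 0.747. Over the 5 pairs from neighbouring genes or the same gene the median r was −0.17, and over the other 16 it was 0.19. This difference was not tested. With single heifers left out, r of bta-miR-30b-3p with bta-miR-30d ran from −0.54 to 0.16.

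**Figure D4:**
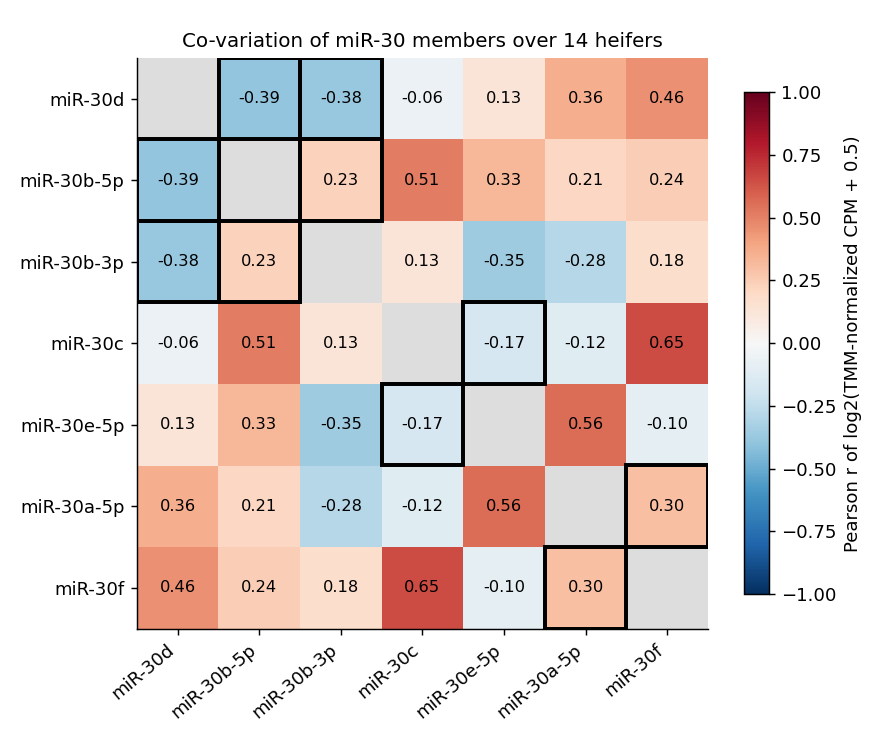
Pearson r between each pair of miR-30 members over 14 heifers, on log2(TMM-normalized CPM + 0.5), red for positive and blue for negative, with black frames around pairs whose precursor genes neighbour each other or are the same. The framed pairs run from −0.39 to 0.30, and the highest value, 0.65 for miR-30c and miR-30f, is outside the frames.

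The members were then compared with marker miRNAs of blood cells. The lists were lymphocyte (bta-miR-150, bta-miR-342 and bta-miR-155), myeloid (bta-miR-223), all leukocytes (bta-miR-142-5p and bta-miR-142-3p), erythroid (bta-miR-451, bta-miR-144 and bta-miR-486), platelet and endothelial (bta-miR-126-5p and bta-miR-126-3p) and muscle (bta-miR-1, bta-miR-133a and bta-miR-206). Of the 14 listed miRNAs, 11 were tested between SFH and FH, and none had an unadjusted edgeR p of at most 0.05. The summed level of each list gave an exact permutation p of 0.172 to 0.670 between the groups. In TMM-normalized CPM, the lymphocyte list summed to 49075 to 118480, the myeloid list to 11535 to 25366, the all-leukocyte list to 5404 to 20721 and the erythroid list to 1470 to 9345 over the 14 heifers. The platelet and endothelial list reached at most 67.3, and the muscle list ranged from 0 to 275. Most of the lymphocyte sum is bta-miR-150, with 2772739 counts over the 14 heifers, against 547822 for bta-miR-342 and 343717 for bta-miR-155.

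Of the 42 combinations of a member and a list, 4 had an unadjusted permutation p of at most 0.05, and 1 passed after Benjamini-Hochberg adjustment over the 42. The share that would pass over all 341 miRNAs is not given. The combination that passed was bta-miR-30b-5p with the all-leukocyte list, most of which is bta-miR-142-5p, a miRNA of the hematopoietic lineages. Its r was 0.82 (permutation p = 0.00045, adjusted p = 0.0189) and rho was 0.85 (permutation p = 0.00024, adjusted p = 0.0101). The relation was present within FH (r = 0.88, n = 7, exact permutation p = 0.0113) and within SFH (r = 0.88, n = 7, exact permutation p = 0.0173), and r was 0.78 without heifers 25 and 28. With single heifers left out r stayed at 0.78 or above, but the adjusted permutation p rose to 0.0693 without SFH heifer 28. bta-miR-30b-5p also had r = 0.60 with the lymphocyte list (permutation p = 0.0234, adjusted p = 0.246), with rho = 0.71 (permutation p = 0.00608, adjusted p = 0.0851), 0.50 in FH, 0.69 in SFH and 0.49 without heifers 21 and 27.

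bta-miR-30d went the other way. With the lymphocyte list its r was −0.67 (permutation p = 0.00884, adjusted p = 0.124) and rho was −0.59 (permutation p = 0.0312, adjusted p = 0.262), with −0.50 in FH, −0.90 in SFH and −0.42 without heifers 21 and 27. The call depended on the scaling and on FH heifer 29. On the deposited CPM of all heifers, r was −0.88 (adjusted permutation p = 0.00294). On the TMM-normalized CPM without FH heifer 29, r was −0.84 (adjusted permutation p = 0.0109). Both quantities are parts of the same total, and what part this has in r was not tested.

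bta-miR-30b-3p had r = 0.65 with bta-miR-223, a miRNA of granulocytes and monocytes (permutation p = 0.00576, adjusted p = 0.121), and rho = 0.76 (permutation p = 0.00193, adjusted p = 0.0405), with 0.71 in FH, 0.45 in SFH and 0.66 without heifers 24 and 31. With the lymphocyte list its r was 0.51 (permutation p = 0.0566, adjusted p = 0.461) and rho was 0.61 (permutation p = 0.0216, adjusted p = 0.227), with 0.90 in FH, 0.34 in SFH and 0.66 without heifers 21 and 27. Without SFH heifer 21, a removal named because its result passed, this r was 0.73 (adjusted permutation p = 0.0244). With all heifers this combination did not pass. The remaining members, bta-miR-30a-5p, bta-miR-30c, bta-miR-30e-5p and bta-miR-30f, had no combination with an unadjusted p of at most 0.05, and their r values with the lymphocyte list were −0.20, 0.47, −0.13 and 0.22. What part the make-up of the cell samples has in the spread of the members was not tested.

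Each member was also compared with every retained miRNA outside the family. The closest patterns, picked as the highest of many r values and therefore given without a test, differed between the members. For bta-miR-30d the nearest was bta-miR-98, a member of the let-7 family, with r = 0.88 and rho = 0.86 over 14 heifers (0.92 in FH, 0.84 in SFH, 0.82 without heifers 27 and 29), and the next was bta-miR-218 (r = 0.71). For bta-miR-30b-5p the nearest was bta-miR-142-5p (r = 0.82, rho = 0.85), followed by bta-miR-2484 (r = 0.77, rho = 0.79, and 0.72 without heifers 21 and 25). Within each group both r values were at least 0.81.

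For bta-miR-30e-5p the nearest was bta-miR-146a, which is induced in inflammatory signaling, with r = 0.86 and rho = 0.76, and the next was bta-miR-194 (r = 0.83, rho = 0.65). Both leaned on FH heifers 20 and 25, the lowest in bta-miR-30e-5p, without which r was 0.55 and 0.46. In SFH alone the values were 0.55 and 0.28. For bta-miR-30c the nearest were bta-miR-664b (r = 0.65, and 0.37 without heifers 22 and 32) and bta-miR-374b (r = 0.64, and 0.66 without heifers 20 and 24).

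For bta-miR-30a-5p they were bta-miR-2285k (r = 0.69, rho = 0.76) and the rare bta-miR-10225b (r = 0.66, rho = 0.64). For bta-miR-30b-3p they were bta-miR-362-5p (r = 0.68, rho = 0.81) and bta-miR-223 (r = 0.65). bta-miR-30f had the weakest neighbours, bta-miR-2285bl and bta-miR-2285co, whose values in the files are identical (r = 0.58, and 0.30 without heifers 17 and 23). Another family member was the closest of all 340 other miRNAs for bta-miR-30f alone, namely bta-miR-30c. The best-placed relative ranked 2nd for bta-miR-30c, 10th for bta-miR-30a-5p, 25th for bta-miR-30b-5p, 26th for bta-miR-30d, 28th for bta-miR-30e-5p and 55th for bta-miR-30b-3p.

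**Figure D5:**
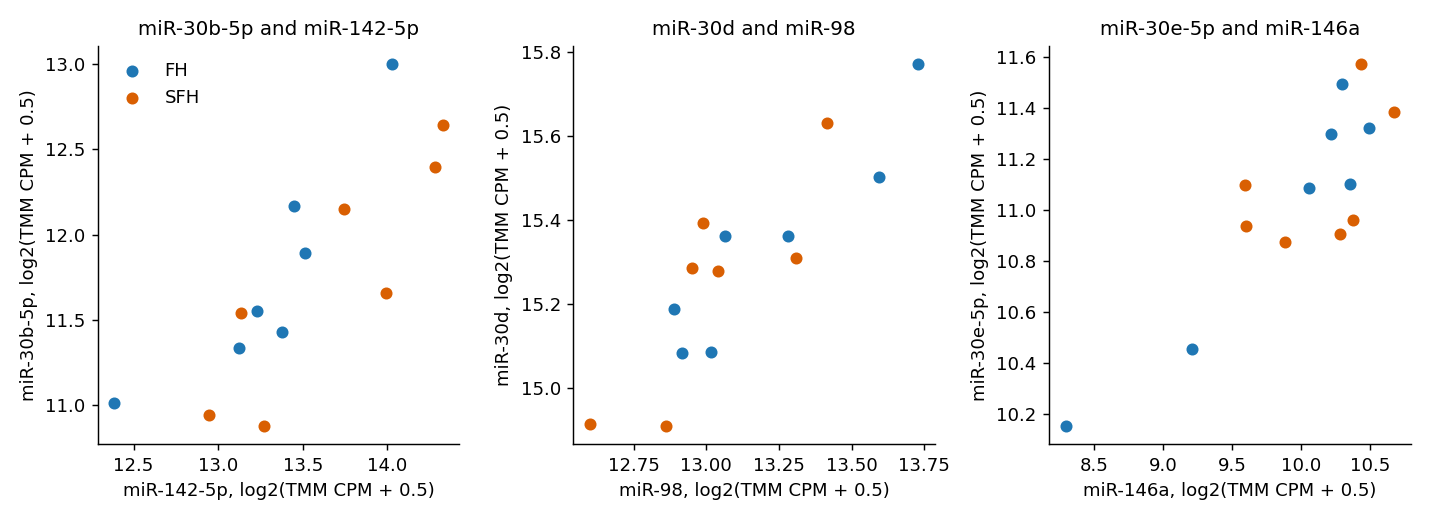
log2(TMM-normalized CPM + 0.5) of miR-30b-5p, miR-30d and miR-30e-5p (vertical axes) against the miRNA outside the family with the highest r for each (horizontal axes), with 1 point per heifer, FH in blue and SFH in orange. The r values are 0.82, 0.88 and 0.86, and in the panel of miR-30e-5p the 2 lowest points are FH heifers 25 and 20.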

How the data were processed

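Small RNA was sequenced from PWBC of 7 FH and 7 SFH heifers, each a separate animal. The authors trimmed adapters and end bases with Cutadapt, aligned the reads with miRDeep2 to ARS-UCD1.2 and to miRBase precursors and mature miRNAs with no mismatch in the seed, and deposited raw counts without normalization. The authors also deposited CPM made with edgeR 3.28.1, and these equal the counts divided by the total over the 341 retained miRNAs. A miRNA was tested if 7 or more heifers had 1 CPM or more, and for a name with several rows the row with the highest total was kept, although each member had a single row. TMM-scaled counts were tested in edgeR 4.0.16 (R 4.3.3) by quasi-likelihood, with group as the only term. DESeq2 1.42.0 and limma 3.58.1 were alternatives. Permutation tests used Python 3.11.15, numpy 2.4.6 and scipy 1.17.1. The tests in edgeR, DESeq2 and limma, the permutation tests and the Benjamini-Hochberg adjustment were tried on simulated data. The outlier ratio described below was not. A count of 0 allows up to 3 counts, or 0.549 to 1.71 CPM. The members and lists were chosen with earlier results of these data known. The miRNAs named were the 7 members, the marker miRNAs and the 2 closest patterns of each member. The pairs named were those with the highest and lowest r and those from neighbouring precursor genes or the same one. The pair of bta-miR-30a-5p with bta-miR-30e-5p was named after its value was seen. Mature sequences and mRNA values were not used here.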

Additional observations from a re-analysis of the deposited data

Results flagged for a closer look

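In 18 groups of 7 heifers (7 members, the family share and the arm ratio, in FH and in SFH), the highest or lowest heifer was compared with the others by Dixon's ratio, the gap to the nearest heifer over the range, on unlogged values against a critical value of 0.568. Chance passes about 1 in 20 groups, and 3 of the 18 passed. FH heifer 22 had 8515 CPM of bta-miR-30b-5p, with the next FH heifer at 4672 CPM (ratio 0.590, and 0.415 on the log2 scale). FH heifer 27 had 53838 CPM of bta-miR-30d, with the next at 42707 CPM (ratio 0.620, and 0.571 on the log2 scale). FH heifer 27 also had 726 reads of bta-miR-30b-5p per read of bta-miR-30b-3p, with the next at 194 (ratio 0.768, and 0.428 on the log2 scale). On the log2 scale 2 groups passed, the second being bta-miR-30b-3p in SFH with its lowest value in heifer 32 (0.638, against 0.531 unlogged).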

How the results depend on the processing

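No member passed an unadjusted or adjusted p-value of 0.05 under any of the 24 alternatives to the SFH against FH fit: other scalings, DESeq2, limma-voom, other filters, other handling of repeated rows, the log2 total as a covariate, and each heifer left out. The log2 fold change of bta-miR-30b-5p changed sign to 0.0364 with upper quartile scaling, 0.0138 with library totals only and 0.0167 in limma-voom. With 1 heifer left out it ranged from −0.21 to 0.27, that of bta-miR-30b-3p from −0.10 to 0.53, bta-miR-30e-5p from −0.0328 to 0.16, bta-miR-30f from −0.44 to 0.0094, and the log2 ratio of bta-miR-30b-3p to bta-miR-30f from −0.18 to 0.19. Neighbours in level that differed remained 5 in number with other pseudocounts, summed rows of a name and each heifer left out. Such changes leave the ratios within a heifer nearly as they were, so they give the order no further support. The pairs of members with an adjusted p of at most 0.05 numbered 0 to 1 with 1 heifer left out and 0 otherwise. The combinations of members and marker lists numbered 2 on deposited CPM, 2 with Spearman's rho, and 0 to 2 with 1 heifer left out, where 1 was found with all heifers. The cause of these changes was not tested. No paired analysis was possible because FH and SFH heifers share no numbers. With 7 heifers per group, differences of the rare members smaller than about 1 on the log2 scale were not detectable.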
